A study of Mus musculus with 3 samples.

Results

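Ly49 T cells are here the T cells of the mouse duodenum with transcripts of Klra6, Klra7 or Klre1 at or above a set minimum. They made up 3141 of the 33284 cells that passed the quality filter and 3141 of 27643 T cells. A cell was counted as a T cell with at least 1 UMI of Cd3e, the epsilon chain of the CD3 signalling complex, and as a Ly49 T cell when Klra6, Klra7 and Klre1 together also gave at least 2 UMIs. A UMI, or unique molecular identifier, marks 1 captured transcript. The 22750 T cells with no UMI of these 3 receptors are called other T cells, and 1752 T cells with exactly 1 UMI belong to neither set. Other T cells can still hold Ly49 genes outside the rule, such as Klra5, whose shares are given below. The cells were thus chosen by their UMIs of Cd3e, Klra6, Klra7 and Klre1, so the levels of these 4 genes are description. They were not tested between cell sets, but they were among the genes compared between PFF and saline.

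The study profiled duodenal immune cells of male C57B6/J mice by droplet single-cell RNA sequencing at day 30 after injection into the duodenal wall. The PFF library came from mice given preformed fibrils of mouse recombinant alpha-synuclein, the protein that aggregates in Parkinson's disease, and the saline libraries came from mice given saline. Tissue was digested with Accumax, and a CD45-sorted fraction was recombined with a fraction enriched for CD11b on beads, so shares of cells depend on that preparation. PFF 1 and saline 1 were batch 1 and saline 2 was batch 2, which leaves 1 PFF library, and how many mice entered each library is not given in the sources used here.

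Ly49 receptors are lectin-like proteins, encoded by the Klra genes in mice, that natural killer (NK) cells use to read MHC class I on other cells. Most carry a tyrosine motif in the cytoplasmic tail that recruits phosphatases and restrains killing, while a few lack it and signal through adapter proteins. In the gut epithelium, T cells with receptors of this kind are found among the resident intraepithelial lymphocytes, which store granzymes and stay in contact with enterocytes. Klre1 lies in the same gene cluster and encodes the related receptor NKG2I or KLRE1, which has no tyrosine motif of its own.

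The coding starts of 4 Ly49 genes are shown because they carry that motif: Klra6 and Klra7 belong to the rule, and Klra5 and Klra1 are the Ly49 genes outside it on which the results below turn. They are the first 60 coding bases on the coding strand, 5′ to 3′, from GENCODE M21 on GRCm38, and capitals mark the codons of the inhibitory tyrosine motif. All 4 genes lie on the minus strand of chromosome 6, at chr6:129911402-129911461 for Klra5, chr6:130025160-130025219 for Klra6, chr6:130231558-130231617 for Klra7 and chr6:130380603-130380662 for Klra1.
Klra5: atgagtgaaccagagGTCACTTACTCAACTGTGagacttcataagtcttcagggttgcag
Klra6: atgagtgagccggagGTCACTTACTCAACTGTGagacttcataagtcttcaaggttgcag
Klra7: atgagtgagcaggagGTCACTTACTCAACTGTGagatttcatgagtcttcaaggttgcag
Klra1: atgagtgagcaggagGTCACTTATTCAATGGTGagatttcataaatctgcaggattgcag
Klra5 differed from Klra6 at 3 of the 60 bases and from Klra7 at 6, and Klra1 differed from Klra6 at 9. The motif was found in the first 40 codons of each Klra gene examined except Klra4 and Klra8. The library chemistry reads 3′ ends, where the genes are easier to tell apart: none of the 60-base words in the last 400 bases of Klra1, Klra5, Klra6, Klra7 or Klre1 occurred in another receptor gene examined. For Klra3, 24.8% of these words did, and for Klri1 10.3% did, so levels of Klra3 and Klri1 are less certain. Klre1 lies at chr6:129577905-129585827 on the plus strand.

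Some libraries stand apart and share material. Each saline file joins 4 wells, of which 3 hold the same cells with identical counts in both files, so these shared wells were counted once and stand beside the 3 libraries. PFF 1 and saline 2 share 119 cell barcodes, against 1 to 42 for the other pairs of wells, and those barcodes had a median of 696 UMIs in PFF 1 and 59931 in saline 2. Of the Ly49 T cells, 3 in PFF 1 and 3 in saline 2 carry such a barcode. Ly49 T cells had medians of 10419, 3541 and 12233 UMIs in PFF 1, saline 1 and saline 2, and other T cells had medians of 9032, 3176 and 10080. UMIs summed over the Ly49 T cells came to 21542702 in PFF 1, 1408959 in saline 1, 5340611 in saline 2 and 4359568 in the shared wells. Cells above 15% mitochondrial UMIs, which were left out, made up 20.1% of the barcodes of PFF 1, 3.04% of saline 1 and 22.7% of saline 2.

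Klra6 encodes Ly49F and Klra7 encodes Ly49G, both inhibitory receptors. Klre1 was the receptor that brought most of the cells in: it had a UMI in 2632 of the 3141 Ly49 T cells (83.8%), Klra6 had one in 1083 (34.5%) and Klra7 in 674 (21.5%). Klre1 alone accounted for 1766 cells (56.2%), Klra6 alone for 284 and Klra7 alone for 120, while 277 cells had all 3. The mix differed between wells: Klre1 was in 88.5% of Ly49 T cells of PFF 1, 81.0% of saline 1, 90.4% of saline 2 and 66.9% of the shared wells, whereas Klra6 was in 31.4%, 37.7%, 26.6% and 47.1% in the same order. Just inside the rule, 743 cells (23.7%) had exactly 2 UMIs of the 3 receptors, and just outside it stood the 1752 T cells with 1 UMI. The median was 4 UMIs and the highest count 103.

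B cells show how much of this could be free RNA. Of 515 B cells in PFF 1, with a median of 7378 UMIs, 6 had a Klre1 UMI (1.17%), and none had 2 or more UMIs of the 3 receptors. The 31 B cells of saline 1 and the 87 of saline 2, with medians of 4314 and 7238 UMIs, had no Klre1 UMI, which allows shares of up to 9.68% and 3.45%. None of the 333 B cells of the shared wells had one, which allows up to 0.901%. Of the genes that mark NK cells, Ncr1 and Eomes were found in few cells. Ncr1, which encodes the NK receptor NKp46, had a UMI in 0.278% of Ly49 T cells of PFF 1, 0.567% of saline 1 and 0.508% of saline 2, against 0.0634%, 0.0226% and 0.0760% of other T cells. Eomes, an NK and memory T cell factor, had a UMI in 0.389%, 0.283% and 3.30% of Ly49 T cells in the same order. Summed markers of NK cells and ILC1, most of them UMIs of Cd7, were at 2882, 2978 and 3039 CPM (UMI counts scaled to 1000000 UMIs of the cell set) in Ly49 T cells, against 2397, 2617 and 2859 CPM in other T cells. Natural intraepithelial T cell markers (Cd8a, Fcer1g, Tyrobp, Itgae, Cd160, Cd244a and Ikzf2) summed to 8539, 8493 and 8261 CPM in Ly49 T cells, against 7149, 7634 and 7645 CPM in other T cells. Both sets thus had the markers of natural intraepithelial T cells, at a higher sum in Ly49 T cells in each library.

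Ly49 T cells were 17.2% of T cells in PFF 1 (1799 of 10451, exact binomial 95% interval 16.5 to 17.95%), 6.99% in saline 1 (353 of 5053, 6.30 to 7.72%) and 11.98% in saline 2 (394 of 3288, 10.9 to 13.1%). The shared saline wells were at 3.05%, 4.36% and 7.29%, with 19, 35 and 541 Ly49 T cells. Intervals here and below cover counting error only, and the PFF library was above each saline well beyond that error. Among the saline libraries, the intervals of saline 1 and saline 2 did not overlap either, and 1 PFF library against 2 saline libraries cannot reach a permutation p below 0.3333, so no test was made.

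The wells also differ in depth, and a rule that asks for 2 UMIs admits more cells where more UMIs were read. With each cell thinned to 2000 UMIs, the shares were 5.83% in PFF 1 (544 of 9330, 5.36 to 6.33%), 4.80% in saline 1 (215 of 4478, 4.19 to 5.47%) and 3.46% in saline 2 (104 of 3002, 2.84 to 4.18%). In the shared wells they were 2.23%, 2.09% and 3.05%. Thinning left out 577 cells of PFF 1, 585 of saline 1 and 423 of saline 2. PFF 1 was still highest, but its interval overlapped that of saline 1, and saline 2 was now below saline 1. Among cells with Trac and no Trdc, the Ly49 share was 34.0% in PFF 1, 14.9% in saline 1 and 23.8% in saline 2, or 11.3%, 9.05% and 5.99% after thinning. Among cells with Trdc it was 10.7%, 3.23% and 8.35%, or 2.27%, 1.80% and 1.87% after thinning.

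**Figure D1:**
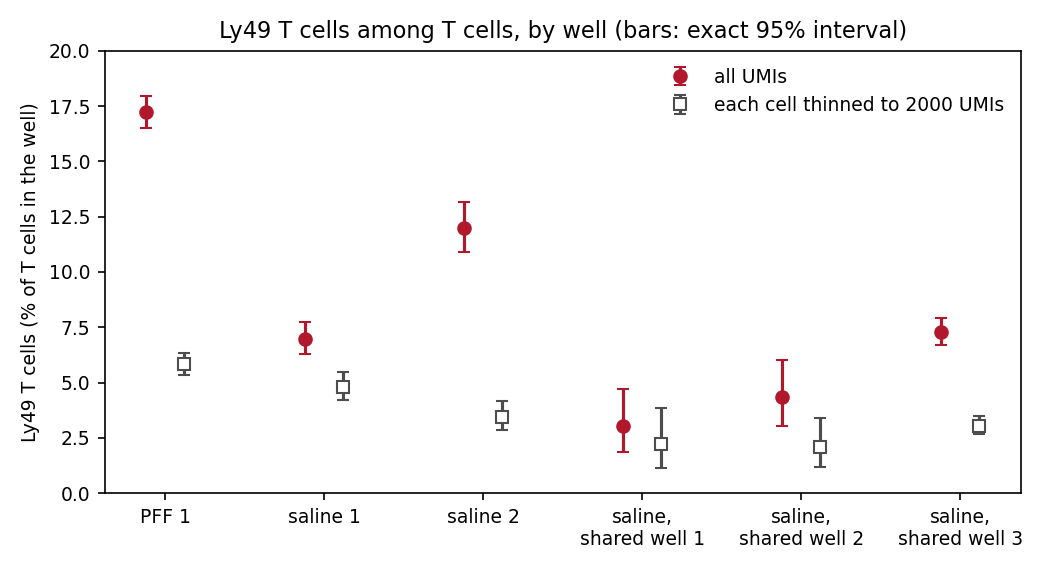
Ly49 T cells as a percentage of T cells in each well, from all UMIs (filled circles) and with each cell thinned to 2000 UMIs (open squares), with exact binomial 95% intervals. PFF 1 is highest at 17.2% and, after thinning, at 5.83%, where saline 1 is at 4.80%.

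Ly49 T cells more often read as alpha-beta T cells than other T cells did. T cells carry either an alpha-beta receptor, whose alpha constant region is encoded by Trac, or a gamma-delta receptor, whose delta constant region is encoded by Trdc. A Trac UMI without Trdc was found in 55.3% of Ly49 T cells of PFF 1 (95% interval 52.9 to 57.6%), 56.4% of saline 1 (51.0 to 61.6%) and 48.0% of saline 2 (42.9 to 53.0%), against 21.3%, 23.1% and 20.1% of other T cells. The 2 sets did not overlap in any library, and the shared wells gave 52.4% against 33.1%. T cells with 1 receptor UMI lay between, at 33.1%, 40.3% and 29.8%.

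Trdc without Trac was rarer among Ly49 T cells than among other T cells, with 4.84%, 9.92% and 2.54% in PFF 1, saline 1 and saline 2, against 17.3%, 33.5% and 14.3% of other T cells. Cells with UMIs of both genes made up 37.4%, 20.1% and 47.7% of Ly49 T cells, against 57.0%, 35.4% and 61.3% of other T cells. Neither gene was seen in 2.50%, 13.6% and 1.78% of Ly49 T cells. The share with neither was highest in saline 1, the library with the lowest median UMI count. In B cells Trac had a UMI in 4.47% and Trdc in 6.21% of PFF 1 cells, in none of the 31 saline 1 cells, and in 3.45% and 1.15% of saline 2 cells, which is the level free RNA could give at the depths above.

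The difference was also seen at equal depth. With the sets kept as above and the receptor type read after thinning every cell to 2000 UMIs, Trac without Trdc was in 44.6%, 47.8% and 37.5% of Ly49 T cells of PFF 1, saline 1 and saline 2, against 20.6%, 22.8% and 20.2% of other T cells. Trdc, with or without Trac, was then in 30.5%, 26.7% and 38.0% of Ly49 T cells, against 57.9%, 62.1% and 62.7% of other T cells.

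**Figure D2:**
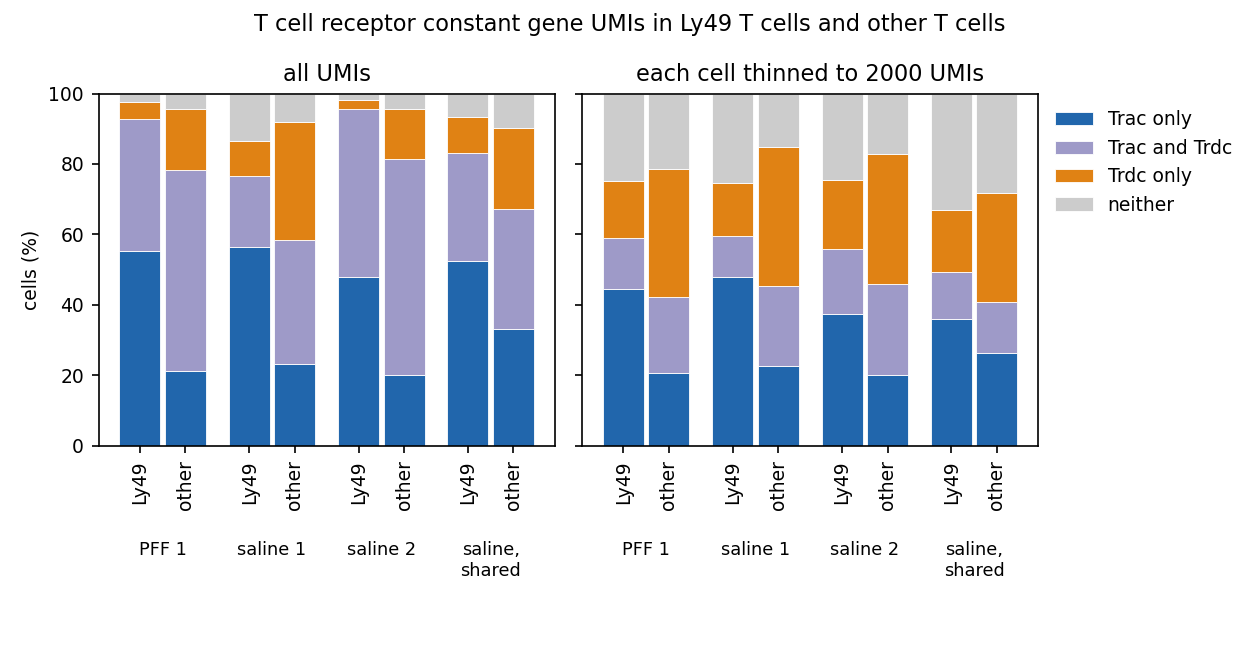
Shares of Ly49 T cells (left bar of each pair) and other T cells (right bar) with UMIs of Trac only, Trac and Trdc, Trdc only or neither, per library and for the shared saline wells, from all UMIs (left panel) and at 2000 UMIs per cell (right panel). Trac-only cells make up 48.0 to 56.4% of Ly49 T cells and 20.1 to 23.1% of other T cells in the 3 libraries.

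Cells with both genes resembled Trdc-only cells in their gamma and delta genes. Tcrg-C1, a gamma constant gene, was at 781, 1061 and 864 CPM in Ly49 T cells with both genes in PFF 1, saline 1 and saline 2. It was at 749, 724 and 871 CPM in Ly49 T cells with Trdc alone, and at 168, 223 and 151 CPM in those with Trac alone. Delta variable genes (Trdv) summed to 29.3, 21.5 and 22.8 CPM with both genes, against 2.26, 1.25 and 0.841 CPM with Trac alone. The beta constant genes Trbc1 and Trbc2 ran the other way, at 1101, 1082 and 1058 CPM with both genes, against 1634, 1718 and 1899 CPM with Trac alone. Saline 2 held 10 Ly49 T cells with Trdc alone, too few to test, so cells with Trdc, with or without Trac, are treated below as 1 set.

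Cells with at least 4 UMIs of Trac and Trdc together were spread over 2 ranges of the Trac share. A Trac share of 0.95 or more was found in 748 of 1466 such Ly49 T cells in PFF 1 (51.0%), 59 of 136 in saline 1 (43.4%) and 145 of 337 in saline 2 (43.0%), against 16.3%, 12.5% and 17.7% of other T cells. The range from 0.8 to 0.95 was nearly empty, with 3.75%, 1.47% and 2.37% of the Ly49 T cells. From 0.2 to 0.4, the shares of Ly49 T cells were 14.9%, 16.2% and 21.7%. Each library thus had a peak at pure Trac and a broad low range at mixed counts.

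**Figure D3:**
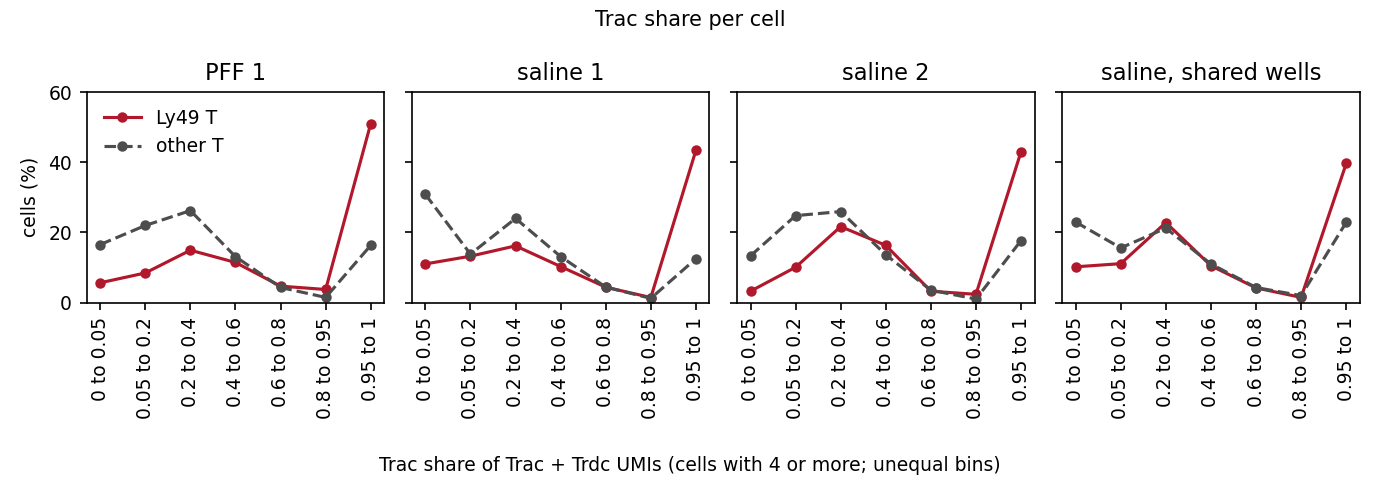
Trac share of the Trac and Trdc UMIs of single cells with at least 4 such UMIs, in unequal bins, as a percentage of Ly49 T cells (solid line) and other T cells (dashed line) in each library and in the shared saline wells. The top bin holds 43.0 to 51.0% of Ly49 T cells in the 3 libraries, and few cells lie between 0.8 and 0.95.

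Variable gene UMIs were few and are given as description. Of 3748 UMIs of Tcrg-V genes in Ly49 T cells, Tcrg-V1 took 53.5%, Tcrg-V7 25.03% and Tcrg-V4 15.8%, against 49.6%, 30.7% and 14.9% in other T cells. Of 1204 Trav UMIs, Trav16 took the most, 13.0%. Near-identical Trav genes such as Trav16 and Trav16n can share reads, so the split between them is uncertain.

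By coreceptor, most Ly49 T cells had the transcript of CD8 alpha without that of CD8 beta. Cd8a without Cd8b1, the chain that makes the CD8 alpha-beta heterodimer of conventional killer T cells, was found in 96.1% of Ly49 T cells of PFF 1, 90.7% of saline 1 and 95.9% of saline 2, against 89.0%, 88.6% and 92.1% of other T cells. Cd8a with Cd8b1 was in 2.95%, 1.70% and 2.79% of Ly49 T cells. Cd4 was in 1.39%, 0.567% and 0.254%. In B cells Cd8a had a UMI in 17.1% of PFF 1, 6.45% of saline 1 and 6.90% of saline 2 cells, so the Cd8a shares of T cells were far above that level.

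To ask which other genes distinguish Ly49 T cells, UMIs were summed per library over Ly49 T cells and over other T cells and compared with edgeR's quasi-likelihood test, with the library as a block and Benjamini-Hochberg adjustment over 14539 genes. Of these, 121 genes were higher in Ly49 T cells (0.832%) and 387 were lower (2.66%) at an adjusted p under 0.05, 3.49% in all. In the list of CD94, NKG2 and NKR-P1 receptors, 7 of 12 tested genes were higher and 0 lower, with a median log2 fold change of 0.91, and in the Ly49 family 3 of 6 tested genes were higher and 1 lower, with a median of 1.22. All 7 tested markers of NK cells and ILC1 had a log2 fold change above 0, with a median of 0.43, and 2 of them passed as higher. Markers of other cell types moved further: 3 of 3 plasma cell markers and 5 of 6 enterocyte markers were lower, with medians of -3.20 and -2.55. The median over all genes was -0.01. The 24 killer genes tested gave 0 calls and a median of 0.03. The rule genes Klra6, Klra7 and Klre1 are not counted, and Klra4, Klra8 and Klra10 had too few UMIs to be tested.

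Klra5 encodes Ly49E, an inhibitory receptor known on fetal NK cells and intraepithelial T cells. It was at 547, 649 and 718 CPM in Ly49 T cells of PFF 1, saline 1 and saline 2, against 185, 288 and 261 CPM in other T cells. Every Ly49 value lay above every value of other T cells, and the log2 fold change was 1.42 ± 0.08 (SE, edgeR adjusted p = 0.000345). A Klra5 UMI was in 39.3%, 42.5% and 48.0% of Ly49 T cells and in 14.9%, 18.2% and 21.01% of other T cells, against 1.17% of B cells in PFF 1, none in saline 1 and saline 2, which allows up to 9.68% and 3.45%, and 5.41% in the shared wells. Klra1, which encodes Ly49A, an inhibitory receptor for H-2 class I molecules, was at 23.2, 42.6 and 19.7 CPM in Ly49 T cells, against 0.963, 2.88 and 1.22 CPM in other T cells. Each Ly49 value was above every value of other T cells, with a log2 fold change of 4.21 ± 0.21 (edgeR adjusted p = 0.000178). Klra3, which encodes Ly49C, was at 23.3, 28.4 and 19.8 CPM against 9.68, 15.8 and 11.2 CPM, a log2 fold change of 1.03 ± 0.14 (edgeR adjusted p = 0.0109). Klra2 ran the other way but rests on few UMIs, at 0.0928, 0 and 0 CPM in Ly49 T cells against 1.26, 1.34 and 1.26 CPM in other T cells. The activating genes Klra4 and Klra8, whose products lack the motif, were too low to be tested: Klra4 had a UMI in 12, 1 and 0 Ly49 T cells and Klra8 in 1, 0 and 1.

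Klrb1c encodes NK1.1, the activating NKR-P1 receptor used as an NK marker. It was at 46.4, 47.6 and 54.9 CPM in Ly49 T cells of PFF 1, saline 1 and saline 2, against 23.3, 20.1 and 31.2 CPM in other T cells. The values did not overlap, and the log2 fold change was 0.99 ± 0.08 (edgeR adjusted p = 0.00183). Klrk1, which encodes the stress-ligand receptor NKG2D, was at 8.31, 17.0 and 4.49 CPM in Ly49 T cells, against 1.10, 1.34 and 0.544 CPM in other T cells. That is a log2 fold change of 3.19 ± 0.32 (edgeR adjusted p = 0.00349), at a low level. Klri1, a partner of KLRE1 in the cell membrane, was at 80.2, 72.4 and 70.4 CPM against 46.6, 31.1 and 47.1 CPM, with a log2 fold change of 0.82 ± 0.10 (edgeR adjusted p = 0.0083). Klrb1a, Klrb1, Klrc2 and Klri2 were the other 4 higher genes of that list, with log2 fold changes from 0.52 to 2.50. Klrd1, which encodes CD94, the partner chain of the NKG2 receptors, was abundant in both sets, at 1119, 1309 and 1141 CPM in Ly49 T cells and 945, 1198 and 1037 CPM in other T cells, and missed the threshold (log2 fold change 0.18 ± 0.04, edgeR adjusted p = 0.0789).

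Of the 14 adapters and kinases, 2 were lower in Ly49 T cells and 0 higher. Cd247, which encodes the CD3 zeta chain that carries the T cell receptor signal, was at 287, 214 and 256 CPM in Ly49 T cells of PFF 1, saline 1 and saline 2, against 412, 417 and 329 CPM in other T cells. All 3 Ly49 values lay below all values of other T cells, with a log2 fold change of -0.58 ± 0.11 (edgeR adjusted p = 0.0372). Lat, the scaffold of T cell receptor signalling, was lower by a log2 fold change of -0.44 (edgeR adjusted p = 0.0186). Tyrobp, which encodes DAP12, the adapter of activating NK receptors, was at 1236, 1236 and 1495 CPM in Ly49 T cells, against 982, 1000 and 1447 CPM in other T cells. It missed the threshold (log2 fold change 0.24 ± 0.06, edgeR adjusted p = 0.0801). A Tyrobp UMI was in 94.6%, 89.5% and 96.2% of Ly49 T cells, against 23.9%, 6.45% and 18.4% of B cells.

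Both sets were rich in granzyme transcripts, and no killer gene passed in the main comparison, though some did in the alternatives given below. Gzma, which encodes granzyme A, a protease released into target cells, was at 19235, 18930 and 24282 CPM in Ly49 T cells of PFF 1, saline 1 and saline 2, against 16004, 17373 and 23603 CPM in other T cells. Gzma was higher in Ly49 T cells within each library, though the values of the 2 sets overlapped across libraries. Its log2 fold change of 0.16 had a 95% interval of 0.06 to 0.25 and an edgeR adjusted p of 0.0895. Gzmb, granzyme B, was at 2798, 2864 and 3725 CPM against 2501, 2944 and 3981 CPM. Higher in PFF 1 but lower in both saline libraries, it had a log2 fold change of 0.02 with an interval of -0.10 to 0.14 (edgeR adjusted p = 0.997). Prf1, which encodes perforin, the pore that lets granzymes in, was at 78.7, 76.7 and 89.3 CPM against 77.1, 74.4 and 84.3 CPM, a log2 fold change of 0.07 with an interval of -0.06 to 0.19 (edgeR adjusted p = 0.715).

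Among the other killer genes, Nkg7, a granule membrane protein, had a log2 fold change of 0.14, Fasl, a death ligand, 0.16, Xcl1, a chemokine for cross-presenting dendritic cells, 0.19, Ccl5 -0.01 and Ccl4 -0.20, with edgeR adjusted p-values from 0.091 to 0.997. Of the 24 genes, 7 had an unadjusted edgeR p under 0.05, against 2099 of all 14539 genes, and DESeq2 called 1, Xcl1. Without the barcodes shared by PFF 1 and saline 2, Gzma (log2 fold change 0.15, edgeR adjusted p = 0.0368) and Xcl1 (0.20, edgeR adjusted p = 0.00879) passed as higher. They also passed without saline 2, each at a log2 fold change of 0.22 (edgeR adjusted p = 0.00865 and 0.0176). With each well as a library they passed too (0.18 and 0.33, edgeR adjusted p = 0.0350 and 0.0402). Gzma also passed with at least 3 receptor UMIs and with the shared wells added (0.18 and 0.17, edgeR adjusted p = 0.0128 and 0.0171). Without saline 2, Nkg7 and Cst7 passed as higher and Gzmk as lower. Ccl4, Ccl3 and Serpinb9 passed as lower without PFF 1, and Ccl4 also with the shared wells added. A Gzma UMI was in 97.9%, 92.4% and 96.7% of Ly49 T cells and in 96.2%, 92.3% and 95.1% of other T cells, but also in 71.3%, 32.3% and 60.9% of B cells, so shares of cells with Gzma carry much background. A Prf1 UMI was in 53.0%, 24.4% and 62.4% of Ly49 T cells and 45.6%, 20.8% and 51.3% of other T cells, against 2.52%, 3.23% and 1.15% of B cells. At 2000 UMIs per cell these Prf1 shares were 13.2%, 14.1% and 17.1% of Ly49 T cells and 14.0%, 14.1% and 15.7% of other T cells, with no common direction.

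**Figure D4:**
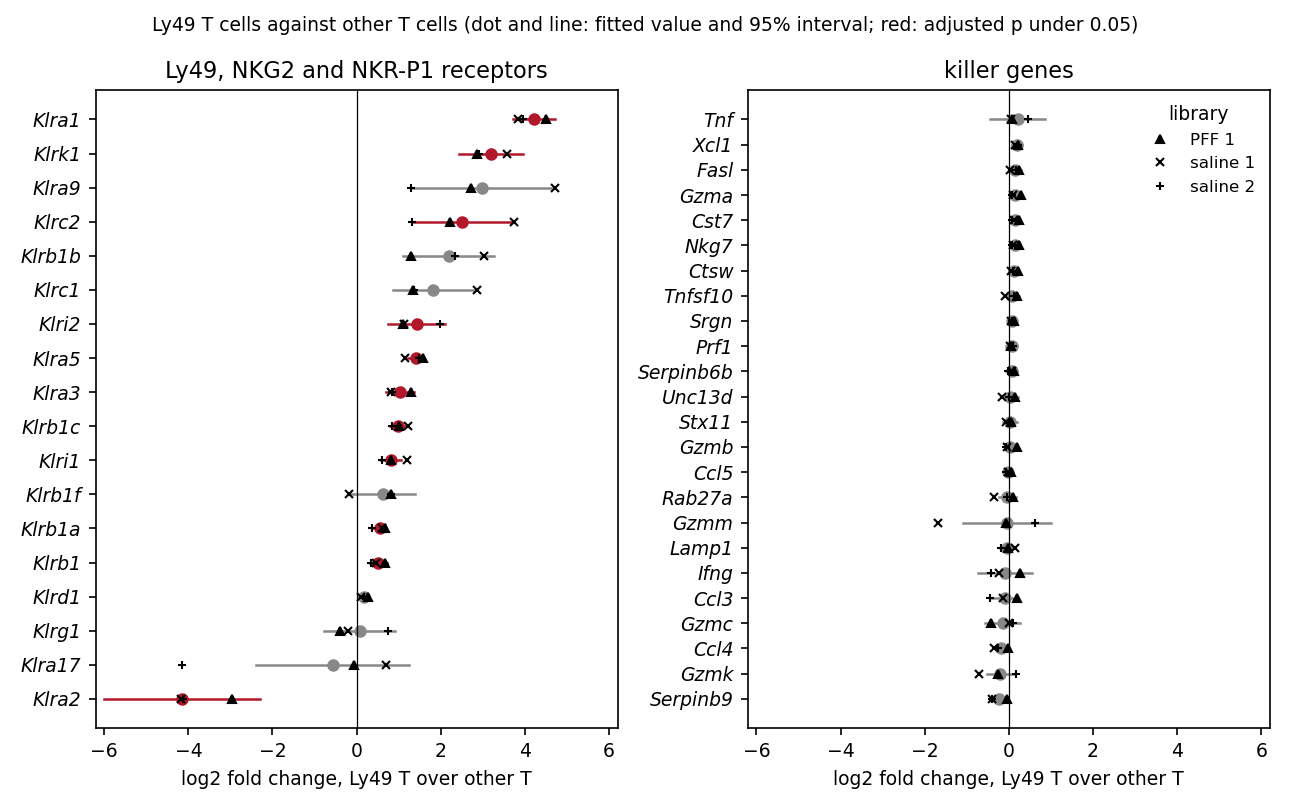
Log2 fold changes of Ly49 T cells over other T cells for receptor genes (left) and killer genes (right), with the fitted value and 95% interval (dot and line, red where the edgeR adjusted p is under 0.05) and the value of each library (black symbols). 10 receptor genes are higher and 1 lower, Klra2, which rests on 2 UMIs in Ly49 T cells, while the killer genes called number 0 of 24.

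T cell receptor genes followed the shares above. Trac was at 530, 534 and 470 CPM in Ly49 T cells of PFF 1, saline 1 and saline 2, against 320, 365 and 355 CPM in other T cells (log2 fold change 0.57, edgeR adjusted p = 0.00684). Trdc was at 344, 322 and 422 CPM against 647, 747 and 708 CPM (log2 fold change -0.94 ± 0.09, edgeR adjusted p = 0.00289). Trbc2 was higher and Tcrg-C1 lower, with log2 fold changes of 0.32 and -0.59. Of the coreceptor and T cell surface genes, 4 of 13 were lower and 0 higher. Thy1, a surface glycoprotein of most mouse T cells, was at 6.87, 6.39 and 3.74 CPM against 23.4, 23.0 and 10.8 CPM, a log2 fold change of -1.70 ± 0.15 (edgeR adjusted p = 0.00196). Cd5 and Cd6, scavenger-type brakes on T cell receptor signalling, and Cd8b1 were the others, with log2 fold changes of -3.29, -3.10 and -1.06.

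Of 15 tested homing and retention genes, 1 was higher and 1 lower, and of 15 fate factors 2 were higher and 1 lower. Of 5 cytokine receptor genes, 1 was higher and 1 lower. Over all genes 3.49% were called. Ccr9, the receptor for the small intestinal chemokine CCL25, was at 167, 182 and 136 CPM in Ly49 T cells of PFF 1, saline 1 and saline 2, against 242, 286 and 179 CPM in other T cells, and its log2 fold change was -0.51 (edgeR adjusted p = 0.00911). Cd101 was higher, with a log2 fold change of 0.32. Zbtb16, which encodes PLZF, a factor of innate-like T cells, was at 53.2, 26.3 and 48.5 CPM against 23.7, 15.05 and 27.5 CPM. Higher in each library, it had a log2 fold change of 1.00 ± 0.10 (edgeR adjusted p = 0.00316). Ikzf2, which encodes Helios, a factor of regulatory and natural intraepithelial T cells, was higher too (0.37, edgeR adjusted p = 0.00976), and Zeb2, a factor of terminal effector T cells, was lower (-0.72). Il7r, the IL-7 receptor chain that sustains naive and memory T cells, was at 6.03, 4.97 and 6.18 CPM against 26.4, 28.0 and 14.1 CPM, a log2 fold change of -1.86 ± 0.22 (edgeR adjusted p = 0.00735). Il2rb, the chain shared by the IL-2 and IL-15 receptors, was higher by 0.29 (edgeR adjusted p = 0.0441). Havcr2, which encodes TIM-3, was the only one of 9 inhibitory and costimulatory genes called, at a log2 fold change of -1.99 (edgeR adjusted p = 0.00528).

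Among all genes at 50 CPM or more, the highest fold changes after Klra5 belonged to Gm156 at 1.27, Setbp1 at 1.196, Gas7 at 1.07 and Map2 at 0.96. Genes that include Bcl2l15, Gm19585 and Farp1 followed at 0.82 to 0.90. Gm156 is an uncharacterised gene beside the Klra genes on chromosome 6, at chr6:129766568-129784270, between Klri2 and Klra17. Gas7 and Map2 encode cytoskeletal proteins. The lowest belonged to genes of other cell types: Jchain, the joining chain of secreted antibody, was at 5.62, 0.710 and 1.69 CPM in Ly49 T cells, against 212, 282 and 64.5 CPM in other T cells, and Fabp1, an enterocyte fatty acid carrier, was at 17.3, 23.4 and 65.7 CPM against 107, 116 and 509 CPM. Igkc, Igha, Reg1, Sis, Spink1, Krt8, Apoa1 and Pigr were the others. Plasma cell markers summed to 52.1, 56.8 and 47.9 CPM in Ly49 T cells, against 721, 1562 and 224 CPM in other T cells, and enterocyte markers to 201, 153 and 424 CPM against 597, 471 and 1745 CPM. Their part in the other differences was not tested.

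Without saline 1, 54 genes were called, and of the 29 role-list genes called above Klra1, Klra5 and Trdc kept their call, whereas without saline 2, 1367 genes were called and all 29 kept it. Without PFF 1, 781 were called and 25 of the 29 kept their call.

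Since Ly49 T cells hold more alpha-beta cells, the comparison was repeated within each receptor type. Among cells with Trac and no Trdc, 994, 199 and 189 Ly49 cells of PFF 1, saline 1 and saline 2 were set against 1679, 1022 and 528 other cells. Of 11574 genes, 4 were higher in the Ly49 cells (0.0346%) and 19 lower (0.164%), 0.199% in all. In the lists, 2 of 4 tested Ly49 genes and 1 of 12 CD94, NKG2 and NKR-P1 genes were higher, 3 of 13 surface genes were lower, and 0 of 23 killer genes passed in either direction. No killer gene had an unadjusted edgeR p under 0.05 there, against 727 of all 11574 genes, and DESeq2 called 0.

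Klra5 was at 677, 815 and 915 CPM in alpha-beta Ly49 T cells of PFF 1, saline 1 and saline 2, against 369, 527 and 573 CPM in other alpha-beta T cells. The sets did not overlap, and the log2 fold change was 0.73 ± 0.06 (edgeR adjusted p = 0.00455). Klra1 was at 36.4, 57.4 and 38.7 CPM against 2.62, 11.0 and 5.46 CPM, a log2 fold change of 3.10 ± 0.26 (edgeR adjusted p = 0.00455). Klri1 and Gas7 were the other 2 higher genes, at log2 fold changes of 0.62 and 1.19. Gzma was at 19749, 19457 and 23574 CPM against 16115, 18738 and 26662 CPM. Higher in 2 of 3 libraries and lower in saline 2, it had a log2 fold change of 0.06 with an interval of -0.09 to 0.21 (edgeR adjusted p = 1.00). Without saline 2 it passed as higher (0.18, edgeR adjusted p = 0.0492).

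The genes lower in alpha-beta Ly49 T cells included several that naive and conventional T cells are known to express. Cd5 was at 0.361, 1.25 and 0 CPM in PFF 1, saline 1 and saline 2, against 25.2, 8.49 and 7.22 CPM in other alpha-beta T cells, and its log2 fold change was -5.78 ± 0.52 (edgeR adjusted p = 0.00583). Cd6 and the costimulatory receptor Cd28 were lower by log2 fold changes of -5.20 and -4.87 (edgeR adjusted p = 0.00386 and 0.0105). Lef1, a factor of naive T cells, was at 7.41, 11.2 and 2.10 CPM against 57.8, 17.5 and 32.2 CPM, a log2 fold change of -2.85 (edgeR adjusted p = 0.0178). Il7r was lower by -2.73 (edgeR adjusted p = 0.00583). Themis, which tunes T cell receptor signals in the thymus, was at 46.2, 62.4 and 39.97 CPM against 216, 174 and 98.6 CPM, a log2 fold change of -1.78 ± 0.17 (edgeR adjusted p = 0.00583). Ms4a4b, Sh3kbp1, Tspan9 and B4galnt2 were the other named genes, at log2 fold changes from -2.72 to -0.53. Cd8b1 missed the threshold, at 3.16, 18.7 and 3.37 CPM against 58.95, 32.3 and 18.8 CPM (edgeR adjusted p = 0.0613).

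With both alpha-beta sets limited to cells with Cd8a and without Cd8b1 or Cd4, 10 genes were called, and 6 of the 23 calls were kept. Klra5 (log2 fold change 0.64), Klra1 (2.87), Themis (-1.08) and Tspan9 (-0.67) were among them, and Klrc1, which encodes the inhibitory receptor NKG2A, gained one (edgeR adjusted p = 0.0471). Gas7 (1.06, edgeR adjusted p = 0.0623), Klri1 (0.53, edgeR adjusted p = 0.0719) and Lef1 (-0.56, edgeR adjusted p = 1.00) did not pass, Cd5, Cd6, Cd28 and Il7r were too low to be tested, and Ms4a4b turned to 0.29 (edgeR adjusted p = 1.00). Without saline 1, 7 genes were called, Cd5 and Lef1 among them but not Klra5 (edgeR adjusted p = 0.0702) or Klra1 (0.0564), and without PFF 1 and without saline 2, 43 and 438 were called.

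Receptor genes were also higher in the Ly49 cells among cells with Trdc. Here 760, 106 and 198 Ly49 cells of PFF 1, saline 1 and saline 2 were set against 5859, 3047 and 1990 other cells with Trdc. Of 13055 genes, 84 were higher (0.643%) and 180 lower (1.38%), 2.02% in all. Higher genes included 2 of 3 tested Ly49 genes, 5 of 11 CD94, NKG2 and NKR-P1 genes and 3 of 14 fate factors. Of the 24 killer genes 0 passed, and DESeq2 called 0. An unadjusted edgeR p under 0.05 was found for 5 of the 24, against 1055 of all 13055 genes.

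Klra5 was at 405, 409 and 564 CPM in Ly49 T cells with Trdc of PFF 1, saline 1 and saline 2, against 144, 205 and 199 CPM in other T cells with Trdc. The sets did not overlap, with a log2 fold change of 1.39 ± 0.09 (edgeR adjusted p = 2.35e-06). Klrb1c was at 37.2, 39.1 and 53.3 CPM against 18.7, 14.6 and 27.3 CPM (log2 fold change 1.04, edgeR adjusted p = 0.00047), and Klra1, Klrb1a, Klrb1, Klrk1 and Klri1 were higher as well. Setbp1, which encodes a SET-binding nuclear protein, was at 71.1, 56.5 and 92.2 CPM against 23.1, 14.3 and 24.0 CPM, a log2 fold change of 1.78 ± 0.09 (edgeR adjusted p = 4.04e-07). Zbtb16 was higher by 1.16 and Tnfrsf9, which encodes the costimulatory receptor 4-1BB, by 0.49. Gzma was at 18939, 18004 and 24989 CPM against 16712, 17274 and 24309 CPM, a log2 fold change of 0.09 (edgeR adjusted p = 0.396). Higher in each library by a small margin, it did not pass. Without saline 2, Gzma and Nkg7 passed as higher (0.12 and 0.21, edgeR adjusted p = 0.0186 and 0.00263). Without PFF 1, Ccl3 and Serpinb9 passed as lower (-0.50 and -0.63, edgeR adjusted p = 0.0210 and 0.0311).

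Lower genes in the cells with Trdc again included Il7r (log2 fold change -1.64), Ccr9 (-0.43), Thy1 (-1.29), Cd247 (-0.38), Lat (-0.38) and Havcr2 (-1.17). The 10 lowest at 50 CPM or more were genes of goblet cells, plasma cells and enterocytes, such as Clca1 (-4.63), Fcgbp (-3.86), Zg16 (-3.85) and Jchain (-3.54). All 3 goblet cell markers and 5 of 6 enterocyte markers were lower. Without saline 1, 113 genes were called, and 4 of the 20 role-list genes kept their call, Klra5, Klrb1c, Il7r and Tnfrsf9.

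Within the Ly49 T cells, those with Trdc were set against the alpha-beta cells to see how the 2 receptor types differ. Of 10473 genes, 29 were higher with Trdc (0.277%) and 23 lower (0.22%), 0.497% in all, with T cell receptor genes left out. Klra5 was at 405, 409 and 564 CPM in cells with Trdc of PFF 1, saline 1 and saline 2, against 677, 815 and 915 CPM in alpha-beta cells, a log2 fold change of -0.81 ± 0.06 (edgeR adjusted p = 4.25e-05). Klra1 was at 7.37, 4.35 and 3.44 CPM against 36.4, 57.4 and 38.7 CPM, a log2 fold change of -2.68 ± 0.23 (edgeR adjusted p = 6.27e-05). Both Ly49 genes were thus lower in the cells with Trdc in every library. Of the rule genes, which are description, Klra6 was at 56.3, 88.9 and 31.0 CPM in Ly49 T cells with both Trac and Trdc, against 174, 312 and 132 CPM in alpha-beta ones.

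Cd247 was at 365, 300 and 316 CPM with Trdc, against 217, 177 and 181 CPM in alpha-beta Ly49 T cells (log2 fold change 0.75 ± 0.07, edgeR adjusted p = 6.61e-05). Themis was at 226, 250 and 134 CPM against 46.2, 62.4 and 39.97 CPM (2.10 ± 0.10, edgeR adjusted p = 1.98e-07). Both were higher with Trdc in each library. Scin, an actin-severing protein, Zmat4, Tspan9, Sh3kbp1, Eml6, Cish and Pou2f2 were higher too, at log2 fold changes from 0.59 to 1.99. Gm43434 had the highest fold change, 6.68, but it is annotated as an antisense gene at chr14:54128298-54146287 that overlaps Trdc, which chose the cells, so it is not an independent difference.

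Of 23 killer genes, 1 differed between the receptor types at the adjusted threshold in the main setting. An unadjusted edgeR p under 0.05 was found for 7 of the 23, against 544 of all 10473 genes. Xcl1 was at 306, 278 and 321 CPM with Trdc, against 399, 342 and 416 CPM in alpha-beta Ly49 T cells of PFF 1, saline 1 and saline 2. All 3 values with Trdc lay below all 3 alpha-beta values, with a log2 fold change of -0.38 ± 0.06 (edgeR adjusted p = 0.0154). Ccl4, a chemokine that attracts T cells and macrophages, was at 354, 446 and 308 CPM against 247, 114 and 283 CPM. It did not pass in the main setting (0.61 ± 0.19, edgeR adjusted p = 0.435). It passed as higher without the barcodes shared by PFF 1 and saline 2 (0.52, edgeR adjusted p = 0.0478) and with each well as a library (0.42). Without the low-count filter (0.60), without PFF 1 (0.64) and without saline 2 (0.85) it passed too. Ccl3 passed as higher with each well (0.49), without the low-count filter (0.43) and without saline 2 (0.57). Both passed only in the settings named for them. Ikzf2 was lower with Trdc (-0.30, edgeR adjusted p = 0.0028), as were Nr3c2, Plce1, Tgfbr3, Gas7, Gm19585, Dnm3 and Rnf43. The lowest named genes were the enterocyte genes Prap1 (-2.14) and Apoa4, a lipoprotein component (-1.36, edgeR adjusted p = 0.000269). Prap1 was at 5.11, 6.52 and 13.8 CPM with Trdc, against 9.03, 8.73 and 134 CPM, so saline 2 carried most of its difference. Of the marker lists, 1 of 5 tested enterocyte markers, Apoa4, and 1 of 3 goblet cell markers, Muc2, were lower with Trdc. Muc2, the main gut mucin, was at 4.62, 0 and 5.16 CPM with Trdc against 4.79, 0 and 460 CPM in alpha-beta Ly49 T cells, so saline 2 alone stood apart. Of 2 cycling markers, Top2a passed as higher (0.81, edgeR adjusted p = 0.0332), at 89.2, 63.0 and 45.4 CPM against 51.5, 64.9 and 15.99 CPM, with saline 1 the other way. Pecam1, listed as a stromal marker, was higher at 47.3, 39.1 and 48.9 CPM against 24.9, 22.5 and 22.3 CPM (0.95, edgeR adjusted p = 0.0028). The part of these markers in the other differences was not tested. All 5 role-list calls of this comparison, Klra5, Klra1, Cd247, Xcl1 and Ikzf2, held when any 1 library was left out, while the count of all calls was 122 without PFF 1.

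The last comparison set Ly49 T cells of PFF 1 against those of saline 1 and saline 2. Of 12636 genes, 10 were higher in PFF (0.0791%) and 76 lower (0.601%), 0.681% in all, and 0 of the genes in the role lists passed, while 539 genes in all had an unadjusted p under 0.05. The killer genes showed no difference past the threshold, with a median log2 fold change of 0.06 over 24 genes, against -0.02 over all genes. The only replicated group here was saline, with 2 libraries of different batches, which set the spread. The p-values and calls of this comparison thus set 1 PFF library against that spread and carry no replicate check of PFF. For single genes effect sizes are given, and any SE or interval beside them rests on that same spread. In simulated data 13.4% of genes changed by a log2 fold of 1 were recovered here, 74.6% of those changed by 2, and 92.4% of those changed by 3.

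Gzma was at 19235 CPM in Ly49 T cells of PFF 1, against 18930 CPM in saline 1 and 24282 CPM in saline 2. PFF 1 lay between the saline libraries, and the log2 fold change of -0.16 had a 95% interval of -0.40 to 0.08. Gzmb was at 2798 CPM in PFF 1 against 2864 and 3725 CPM in saline (log2 fold change -0.23, interval -0.58 to 0.12). Prf1 was at 78.7 CPM in PFF 1 against 76.7 and 89.3 CPM in saline (-0.09, interval -0.48 to 0.30). Klra5 was at 547 CPM in PFF 1 against 649 and 718 CPM in saline (-0.31, interval -0.73 to 0.11). The intervals of these 4 genes hold no spread between PFF libraries and so set no limit on a change with PFF.

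Cd74, the invariant chain of MHC class II that antigen-presenting cells express, was at 132 CPM in Ly49 T cells of PFF 1, against 15.6 and 34.1 CPM in saline 1 and saline 2. Its log2 fold change was the highest among called genes at 50 CPM or more, at 2.26 ± 0.24. With the shared wells added to the saline side it was 0.91, and Cd74 was no longer called. Igkc, the kappa light chain of antibody, was at 78.4 CPM in PFF 1 against 10.6 and 26.6 CPM in saline (log2 fold change 1.90). With the shared wells its log2 fold change turned to -0.67. Gm42418, a gene that overlaps ribosomal RNA sequence and is read as a sign of RNA quality, was the other called gene at that level. It was at 29720 CPM in PFF 1 against 16898 and 22268 CPM in saline 1 and saline 2 (log2 fold change 0.61). Apoe, a lipid carrier abundant in macrophages, was named after its values were seen: 96 Ly49 T cells of PFF 1 had an Apoe UMI, against 3 of saline 1 and 6 of saline 2, with a log2 fold change of 4.46. B cell markers summed to 60.4 CPM in Ly49 T cells of PFF 1, against 31.9 and 47.6 CPM in saline 1 and saline 2, and macrophage and monocyte markers to 29.4 CPM against 6.39 and 1.69 CPM. The part of other cells' RNA in these values was not tested.

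Of the lower genes, Rbm3, a cold-inducible RNA-binding protein, was at 80.5 CPM in PFF 1 against 243 and 140 CPM in saline 1 and saline 2 (log2 fold change -1.199). Its relative Cirbp was at 42.8 CPM against 141 and 58.4 CPM (-1.11). The cell cycle genes Mki67 and Top2a were at 53.2 and 68.6 CPM in PFF 1. They were at 35.5 and 58.2 CPM in saline 1 and 24.5 and 32.2 CPM in saline 2, and did not pass.

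Most of the lower calls rest on very few cells. For 65 of the 76 genes, most saline UMIs came from saline 2 and over 50% of those from 3 cells. The 3 Ly49 T cells of saline 2 with over 100 UMIs of the secretory genes Gip, Zg16, Tff3, Fcgbp, Muc2 and Clca1 held 36518 of that set's 36993 such UMIs, with up to 83170 UMIs in all per cell, and 2 of the 3 carry a barcode shared with PFF 1. Without the shared barcodes, 22 genes were higher and 22 lower in PFF, and 21 of the 86 calls remained. DESeq2 called 3 genes, and 4 were called with the likeliest doublets removed. With the shared wells added to the saline side, 0 genes were called, with 190 at an unadjusted p under 0.05.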

How the data were processed

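Per the file headers and the submitters' processing notes, the authors aligned the reads to mm10 and counted them with Cell Ranger 7.0.0, and what they deposited are unnormalised UMI counts of each gene in each cell. Of 40606 barcodes, the 33284 with 500 or more UMIs, 200 or more genes and no more than 15% mitochondrial UMIs were used. The cell rule, gene lists and comparisons were chosen with earlier results of these data known. The unshared well of each saline file was 1 library, PFF 1 the third. B cells had at least 3 UMIs of Cd79a, 3 of further B cell markers together, and no Cd3e.

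UMI counts were summed per library and cell set and tested with edgeR 4.0.16 (quasi-likelihood, TMM, filterByExpr, Benjamini-Hochberg, adjusted p under 0.05) in R 4.3.3, with the library as a block where both sets came from each library. The CPM printed are such sums scaled to 1000000 UMIs of the set. SE and intervals come from the fit over 3 libraries. Where the library was a block, p-values weigh a difference within libraries against how much it varied from library to library. For PFF against saline they rest on the spread between the saline libraries. Either spread may be technical. The test recovered 86.6% of genes changed by a log2 fold of 1 in simulated data for Ly49 against other T cells. All simulated counts, also those for PFF against saline, had a common dispersion and no difference between libraries besides size. Recovery where libraries differ as they do here was not tested.

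Genes were named from the role and marker lists, and among called genes at 50 CPM or more with 1 sign in every library, the 10 highest and 10 lowest; a few of these genes are not reported here. Comparisons planned for cells with Trdc alone were not run, since saline 2 had 10 such Ly49 T cells and 20 were required. They were replaced, after the data were seen, by cells with Trdc. Alternatives were DESeq2 1.42.0, other filters, receptor minimums, the shared wells, doublet removal, each library left out and the shared barcodes left out. Scrublet in scanpy 1.11.5 called under 0.5% of cells doublets in most wells, so the main sets keep all cells. In the alternative the highest scores were removed at 0.8% per 1000 cells. This took 260 of the 1799 Ly49 T cells of PFF 1, against 9.81% of all cells of that well. It took 21 of 353 in saline 1 against 4.36% of all its cells, and 25 of 394 in saline 2 against 3.46%. Sequences are from GENCODE M21 on GRCm38.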

Additional observations from a re-analysis of the deposited data

How the results depend on the processing

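The share of Ly49 T cells depended on the receptor minimum and on depth. In PFF 1 it was 24.5% with 1 UMI, 13.7% with 3 and 5.83% after thinning. In saline 1 it was 12.5%, 4.85% and 4.80%, and 8.48% among cells with 3000 UMIs. In saline 2 it was 19.95%, 9.43% and 3.46%, and 8.15% with the files as deposited. Trac without Trdc was in 48.6% of Ly49 T cells of PFF 1 with 1 UMI, 58.6% with 3, 49.8% with rule and type both read after thinning and 51.5% with 2 UMIs of Trac or Trdc. It was in 49.3%, 47.9% and 39.4% in saline 1 with 1 UMI, thinned and with 2 UMIs, and in 40.7% and 41.3% in saline 2 with 1 UMI and thinned.

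Counts of called genes moved widely between settings. For Ly49 against other T cells, 508 genes were called, 1062 with DESeq2, 1465 without the low-count filter, 1125 with the shared wells added, 798 with each well, 969 with at least 3 receptor UMIs and 1516 without shared barcodes. Leaving out 1 library gave 54 (without saline 1) to 1367. Among alpha-beta cells the count was 23, and 69, 324, 66, 128, 72 and 199 in the same order, 37 at 10% mitochondrial UMIs, 10 among Cd8a cells and 7 (without saline 1) to 438. With Trdc it was 264, 665 unfiltered, 397 with shared wells, 521 with 3 UMIs, 555 without shared barcodes and 113 (without saline 1) to 383. For Trdc against alpha-beta Ly49 cells it was 52, 232 unfiltered, 87 with each well, 96 without shared barcodes and 47 to 122 (without PFF 1). For PFF against saline it was 86, 3 with DESeq2, 132 unfiltered, 5 at 3000 UMIs, 4 with doublets removed, 3 with 3 receptor UMIs, 44 without shared barcodes and 0 with the shared wells added or with each well (190 at an unadjusted p under 0.05 in each). No library could be left out there, since no residual degree of freedom remains. The cause of these moves was not tested.

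With no replicate block for the library, the counts were 0 for Ly49 against other T cells (812 at an unadjusted p under 0.05), 0 among alpha-beta cells (241), 6 with Trdc and 7 between receptor types. No paired analysis was possible because PFF and saline share a single replicate number. Of single-gene values, 7592 kept direction and call, 335 gained a call, 332 lost it and 3 reversed: Ms4a4b among Cd8a cells (0.29) and Igkc in PFF with the shared wells added (-0.67) or with each well (-0.54). Values of genes uncalled in both settings count as kept, so the 7592 does not show how stable the calls were. Of the losses, 116 came with no replicate block and 72 without saline 1.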
